A study of Mus musculus with 6 samples.

Results

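The isolated long intervals are stretches of mouse autosome longer than 5000 bp that stand alone in a table of small RNA read counts. They were chosen by 3 criteria, none of which used genotype or age: a position on chromosomes 1 to 19, no base shared with any other interval of the table, and at least 50 reads summed over the 6 libraries. There were 498 of them among 1272486 distinct intervals (0.0391%). An interval could reach 50 reads through a single group of libraries, and a large difference between groups may then rest on that group. Overlapping intervals count the same read several times, which is why the isolated ones were set apart. A read match inside 1 of them lies in no other row. Whether a read with several matches in the genome was also counted elsewhere is not given. All coordinates are on GRCm39, counted from 1, and the intervals carry no gene or repeat name in the table.

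Small RNA was sequenced from testicular germ cells of C57BL/6 mice, labelled spermatogonia, of 2 genotypes: wild type (WT) and Dnmt3l knockout (KO). At postnatal day 0 (P0) 1 WT and 1 KO library were made from enriched neonatal germ cells. At postnatal day 8 (P8) 2 WT and 2 KO libraries were made from THY1+ cells, a fraction enriched for spermatogonial stem and progenitor cells. RNA of 15 to 36 nt was cut from a gel in all of them, and the labels give no other allele or agent. Age and cell preparation changed together and cannot be told apart, and in such bulk samples fewer cells of a type and less RNA per cell cannot be told apart either. The labels do not say whether the P8 replicates came from separate animals, so each p-value rests on the spread between these libraries alone, which may be technical. Since rows have no gene names, neither the deletion of Dnmt3l nor the marker genes of the cells were checked here.

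DNMT3L has no methyltransferase activity of its own and assists DNMT3A in setting DNA methylation on retrotransposons and imprinted loci of male germ cells before birth. Piwi-interacting RNAs (piRNAs) guide PIWI proteins to transposon transcripts and, in the fetal male germ line, direct DNA methylation to transposon copies. Many piRNAs are cut from long single-stranded precursors, so that their reads spread over kilobases of the locus they come from, whereas a microRNA gives reads from a short hairpin. The size range sequenced holds both kinds of molecule as well as fragments of longer RNAs.

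The 6 libraries had 4370237 to 6119690 reads in a set of 88221 intervals that do not overlap one another. The isolated long intervals took 0.989% of these reads in WT and 1.16% in KO at P0, and 0.642% to 0.674% in the 4 P8 libraries. Levels are given as CPM, the reads per 1000000 reads of that set after TMM scaling, a factor that allows for differences in composition between libraries. On this scale their P0 sum was 6810 CPM for WT and 8636 for KO, and their P8 sums were 7479 and 7800 CPM for the WT libraries and 8013 and 8026 for the KO libraries. The TMM factors were 1.45 for WT and 1.34 for KO at P0, and 0.829 to 0.864 in the 4 P8 libraries. In WT the share of reads was thus lower at P8 than at P0 while the CPM sum was higher. Every comparison of CPM between ages depends on this scaling. Single intervals were shallow: the median interval had 44 and 33 reads in the WT and KO P0 libraries and 17 or 18 in each P8 library. Replicate spread followed depth, with a median coefficient of variation between the WT P8 libraries of 28.9% for intervals of 50 to 99 total reads and of 6.93% from 1000 reads on. The KO P8 libraries gave 28.7% and 6.84%.

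Lengths ran from 5004 to 62512 bp with a median of 8413.5 bp, and together the intervals covered 4953 kb. Their total reads ran from 50 to 16101, with a median of 178 and quartiles of 90 and 454. Read density ran from 1.26 to 2326 reads per kb, with a median of 21.1 and quartiles of 9.83 and 51.2. Length and reads were nearly unrelated over the 498 intervals (Spearman's rho 0.0451), and longer intervals did not tend to hold more reads. The nearest other interval lay 22 to 198434 bp away (median 4435.5 bp). Median density per library was 0.570 CPM per kb in WT and 0.629 in KO at P0. At P8 it was 0.384 and 0.392 CPM per kb in the WT libraries and 0.485 and 0.464 in the KO libraries, so both KO libraries lay above both WT libraries. Chromosome 5 held the most, 43 intervals, and chromosome 18 the fewest, 7.

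A further 626 isolated autosomal intervals over 5000 bp had 1 to 49 reads and 39 had 0. At the length limit, chr9:85687263-85692266 (5004 bp, 137 reads) and chr6:92172735-92177748 (5014 bp, 219 reads) were just inside. The nearest outside were chr1:30958907-30963870 (4964 bp, 77 reads) and chr12:3284107-3289067 (4961 bp, 874 reads). At the read limit, 4 intervals had exactly 50 reads, among them chr11:103387798-103398453 and chr11:116620784-116626247. Another 5 isolated long intervals had 49 and were left out, among them chr10:4809047-4832078 and chr14:124371670-124419121.

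Because length was part of the choice, density was set beside that of other autosomal intervals with equal reads as a description. Among intervals with at least 200 and under 500 reads the isolated long ones had a median of 36.3 reads per kb. Isolated intervals over 1 kb and up to 5 kb had 121, and isolated intervals up to 1 kb had 865. Long intervals that overlap others had 16.6 reads per kb in the same class. They were also longer, with a median over all classes of 18137.5 bp. This order of the 4 kinds was the same in each of the 5 read classes, as the plot of density by total reads shows.

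**Figure D1:**
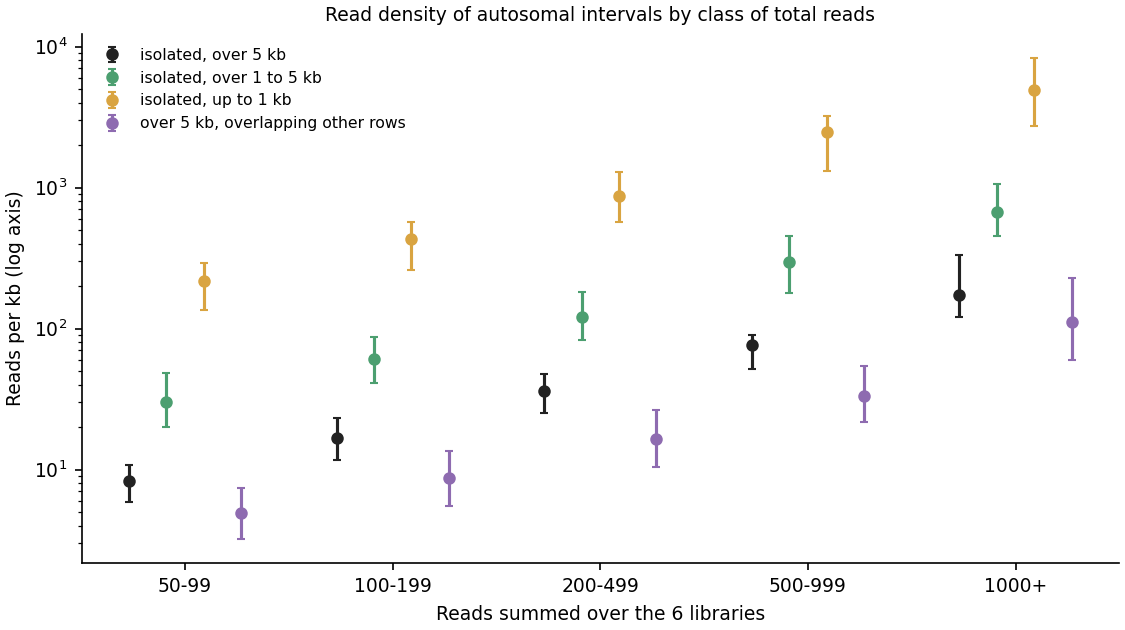
Median reads per kb (log axis) of 4 kinds of autosomal interval in 5 classes of reads summed over the 6 libraries. The bars run from the lower to the upper quartile. The isolated long intervals lie above overlapping long intervals and below both kinds of shorter isolated interval in every class.

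A few intervals held much of the signal. The 10 with the most reads carried 25.8% of all reads in the 498 intervals, from 20.7% in the KO P0 library to 31.6% in 1 WT P8 library. The densest and most abundant was chr8:107740337-107747259, 6923 bp long, with 16101 reads or 2326 per kb. Its P0 level was 46.9 CPM in WT and 32.8 in KO. At P8 it was 953 and 998 CPM in WT, against 714 and 689 in KO. All 4 P8 libraries were far above both P0 libraries, and both KO libraries lay below both WT libraries at P8.

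Second came chr11:40590190-40599563, with 12143 reads or 1295 per kb. It stood at 110 CPM in WT and 127 in KO at P0, then at 641 and 654 CPM in WT and 484 and 482 in KO at P8. These 2 intervals alone made up 21.2% of the reads of isolated long intervals in WT at P8 and 14.8% in KO, against 2.30% and 1.85% at P0. The next 2 by reads had the opposite pattern over age. At P0 chr7:18113911-18121497 (8553 reads, 1127 per kb) was at 402 CPM in WT and 784 in KO, and at P8 at 16.2 and 13.7 in WT and 30.5 and 26.5 in KO. For chr5:132614062-132624786 (5007 reads) the P0 levels were 433 and 183 CPM, and the 4 P8 libraries lay between 3.44 and 7.29 CPM. After them came chr5:82264346-82274015 (4732 reads), at 34.6 and 52.6 CPM in WT and KO at P0, 150 and 165 in WT at P8 and 326 and 300 in KO at P8.

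Among the 5 densest, chr5:3878036-3884266 (705 reads per kb) varied least: 83.3 and 100 CPM in WT and KO at P0, 149 and 164 in WT at P8, and 174 and 194 in KO at P8. The other, chr6:49471395-49476815 (620 reads per kb), was at 143 and 200 CPM at P0, 37.9 and 39.6 in WT at P8 and 66.1 and 64.3 in KO at P8. At the thin end stood the longest interval, chr7:59394361-59456872, where 62512 bp held 79 reads (1.26 per kb), 65 of them at P0. Next in thinness was chr2:21501848-21538864, with 81 reads over 37017 bp (2.19 per kb). Length did not always mean low density: the second longest, chr19:39868966-39916875, held 1121 reads over 47910 bp (23.4 per kb).

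The first comparison asked how small RNA levels differed between Dnmt3l KO and WT cells at P8, the only age with replicates. Among the 498 intervals, 108 were higher in KO and 53 lower (edgeR's quasi-likelihood test, adjusted p under 0.05), and every one of these 161 had KO libraries that did not overlap the WT libraries in level. Only 360 of the 498 had enough P8 reads to be tested. The other 138 had 1 to 43 P8 reads (median 18). Of the tested intervals 30.0% were higher and 14.7% lower, against 22.5% and 20.1% of all 23197 intervals tested. Changes of at least 2-fold numbered 81 up (background 14.2%) and 26 down (background 9.09%). The median log2 change over the tested intervals was 0.14, against -0.01 over all intervals tested. Of the tested intervals that passed in neither direction, 137 were within 0.5 of a log2 change of 0.

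As a description of the 2 lists, whose P8 levels are in part set by the call itself, those higher in KO had a P8 median of 4.48 CPM in WT against 17.3 in KO, with 9.46 and 14.6 CPM at P0. Those lower in KO had a median of 26.0 CPM in WT and 11.1 in KO at P8, with 6.19 and 5.80 CPM at P0. These P8 medians carry no further comparison between the lists. The median log2 change of the called intervals was 1.38 upward and -0.95 downward. DESeq2 called 58 higher and 24 lower of 415 tested, against 2750 and 2207 of all 27780 intervals it tested. A fit to isolated intervals alone, chosen after seeing the data, gave 96 and 60 of 360, against 480 and 363 of all 1835 it tested. A fit to every deposited interval gave 95 and 69 of 360, against 56632 and 51910 of 247642. In both fits the shares lay closer to those of all intervals tested than in the main fit. Leaving out either WT P8 replicate left 1 library in that group. Fewer were then called lower, among isolated long intervals and all intervals alike.

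**Figure D2:**
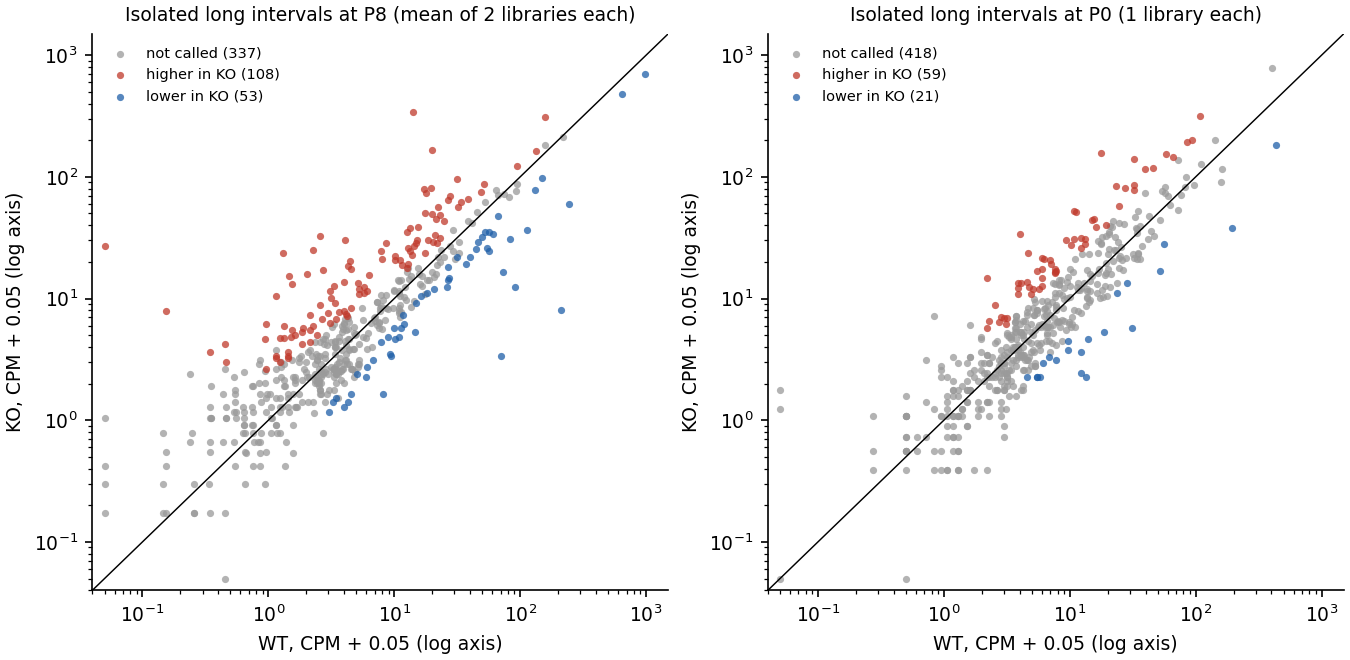
CPM plus 0.05 in KO against WT (log axes) for the isolated long intervals, at P0 (1 library each) and at P8 (means of 2 libraries), with the diagonal of equal level. Coloured points at P8 are the 108 intervals higher and 53 lower in KO by test, and at P0, where there is no test, the 59 and 21 intervals at least 2-fold apart with a counting interval that excludes 1.

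The 2 largest decreases in KO were at intervals with few reads at P0. At that age chr6:127799093-127809834 had 0.901 CPM in WT and 1.02 in KO. At P8 the WT libraries had 182 and 242 CPM but the KO libraries 7.13 and 8.90. This interval of 10742 bp was 26.3-fold lower in KO at P8 (log2 change -4.69, SE 0.18, adjusted p = 1.41e-09 by edgeR). Close behind, chr4:57359346-57364439 went from 0.901 and 2.73 CPM in WT and KO at P0 to 63.8 and 77.0 in WT and 3.44 and 3.21 in KO at P8 (log2 change -4.36, SE 0.20, edgeR adjusted p = 5.36e-09). At each, both KO P8 libraries were far below both WT P8 libraries, and at the second they were close to the KO P0 level.

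Next was chr1:91328539-91338412, with 91.2 and 89.3 CPM in WT and 13.3 and 11.4 in KO at P8 (log2 change -2.84, SE 0.14). Its P0 levels were 5.97 and 6.14 CPM, so that the KO P8 libraries lay above both P0 libraries and far below WT at P8. Among the other intervals that were lower in KO, chr14:52520684-52534136 stood out for its abundance: 248 and 244 CPM in WT and 55.0 and 65.5 in KO at P8, from 19.9 and 23.2 CPM at P0 (log2 change -2.00, SE 0.11). At chr6:81876579-81893548 the P8 levels were 62.6 and 84.5 CPM in WT against 16.5 and 16.6 in KO (log2 change -2.12, SE 0.17). At chr11:86202935-86210433 they were 123 and 105 against 40.8 and 32.1 (log2 change -1.61, SE 0.14). These 4 differed between genotypes with edgeR adjusted p-values of 1.17e-08, 4.44e-08, 8.36e-07 and 1.92e-06 in the order named.

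Of the 8 largest decreases, 2 were at low levels. One was chr1:113435924-113441814, at 7.62 and 8.54 CPM in WT and 1.97 and 1.24 in KO at P8 (log2 change -2.28, SE 0.36, edgeR adjusted p = 0.00031). The other was chr19:52938368-52946297, at 5.14 and 2.71 CPM in WT and 1.72 and 0.742 in KO (log2 change -1.64, SE 0.52, edgeR adjusted p = 0.0236). Its call was lost with DESeq2 (adjusted p = 0.277), with no filter on low counts (0.170), without WT P8 replicate 1 (0.300) and without KO P8 replicate 2 (0.118), and without KO P8 replicate 1 the log2 change was -2.35.

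The largest gain was at chr5:12205541-12213229, where both WT P8 libraries had 0 reads and the KO P8 libraries 119 and 99. Its P0 reads were 5 for WT and 3 for KO. Its KO level at P8, 29.2 and 24.5 CPM, was at least 90.1-fold higher than in WT, taking 3 reads over the WT group as the floor (edgeR adjusted p = 9.70e-08). The most abundant of the large gains was chr8:13763996-13770926. It stood at 16.8 and 23.6 CPM in WT and KO at P0 and at 17.3 and 10.6 in WT at P8, but at 350 and 335 in KO at P8, which is 24.3-fold higher (log2 change 4.64, SE 0.17, edgeR adjusted p = 1.12e-09). WT was at about 1 level over both ages here, and only the KO P8 libraries stood apart among the 6.

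Then came chr1:81340879-81350917, at 1.90 and 0.625 CPM in WT and 23.3 and 23.7 in KO at P8 (18.2-fold). Its log2 change of 4.19 was 5.18 without WT P8 replicate 1 and 3.61 without replicate 2. At chr13:20847429-20861320 WT had 9.23 CPM at P0 and 1.90 and 3.12 at P8, where KO had 30.0 CPM at P0 and 31.2 and 34.4 at P8 (13.2-fold at P8). A like pattern was seen at chr7:17529877-17544539, with 8.22 CPM in WT and 14.2 in KO at P0, 2.09 and 2.29 in WT and 24.6 and 25.7 in KO at P8 (11.5-fold). In these last 2 the WT level was lower at P8 than at P0 and the KO level was not.

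Elsewhere both genotypes were lower at P8 than at P0 and KO was above WT at both ages. At chr2:144951705-144960647 WT went from 3.94 to 0.762 and 2.08 CPM, and KO from 33.6 to 14.3 and 16.3 CPM (11.0-fold at P8). Its log2 change of 3.46 was 2.87 without WT P8 replicate 1 and 4.28 without replicate 2. At chr3:132339538-132347563 WT went from 17.7 to 1.14 and 1.04 CPM, and KO from 156 to 13.0 and 7.91 CPM (9.58-fold at P8). The remaining one of the 8, chr12:119244519-119255622, was at 3.60 and 5.63 CPM at P0, 0.381 and 0.416 in WT and 4.42 and 3.96 in KO at P8 (10.5-fold). The edgeR adjusted p-values of the 6 intervals after the first 2 ran from 1.32e-07 to 0.000236.

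**Figure D3:**
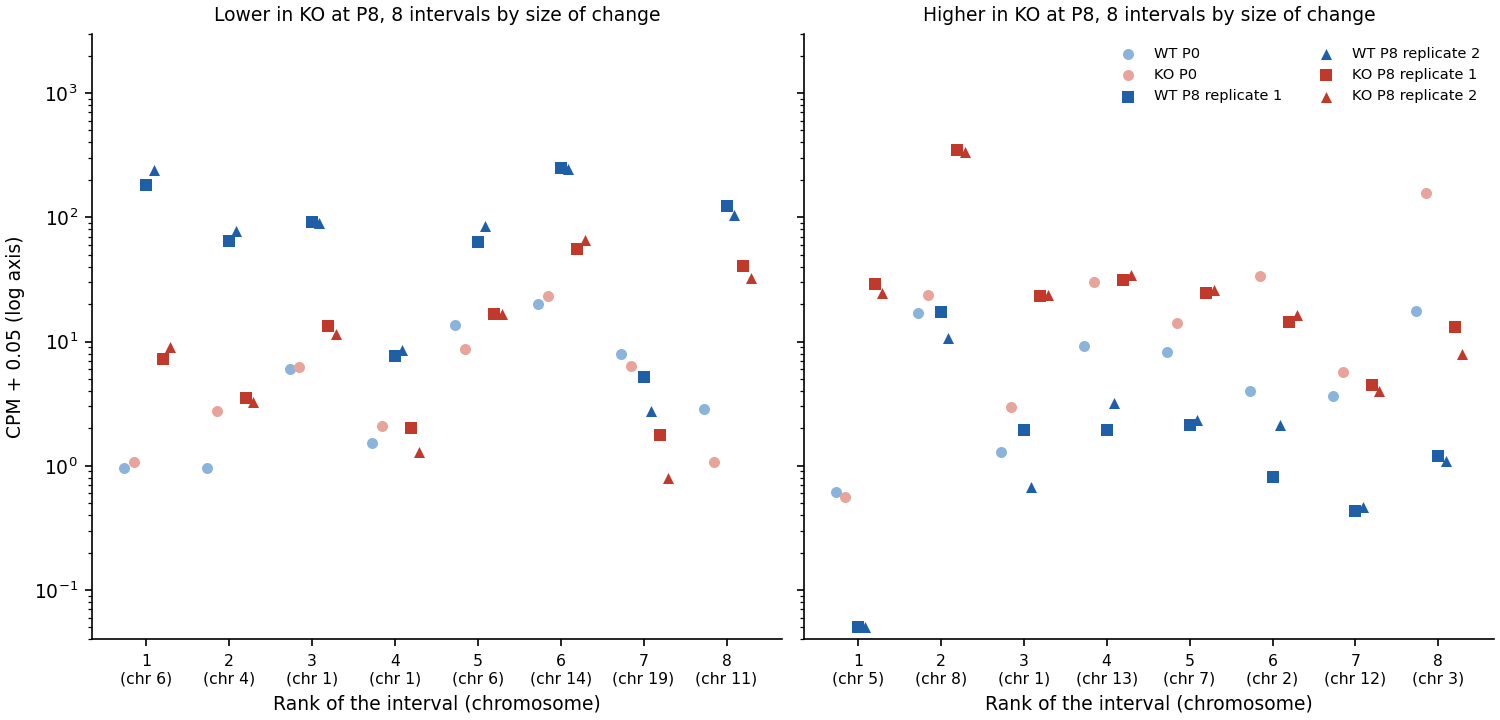
CPM plus 0.05 (log axis) in each of the 6 libraries for the 8 intervals with the largest decrease and the 8 with the largest increase in KO at P8, ranked by size. Each point is 1 library. In the first panel both WT P8 points lie above both KO P8 points at every rank, as the choice of these intervals required. Rank 1 of the second panel, at 0 reads in both WT P8 libraries, sits at the offset.

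Among the most abundant and densest intervals, genotype differences at P8 went both ways. At that age chr8:107740337-107747259 was lower in KO by a log2 change of -0.45 (SE 0.07, edgeR adjusted p = 0.000279) and chr11:40590190-40599563 by one of -0.39 (SE 0.07, adjusted p = 0.00111). Higher in KO were chr5:82264346-82274015 (1.02, SE 0.10), chr7:18113911-18121497 (0.95, SE 0.17), chr6:49471395-49476815 (0.78, SE 0.12) and the second longest interval, chr19:39868966-39916875 (1.37, SE 0.22). Their edgeR adjusted p-values were 4.36e-06, 0.000667, 0.000187 and 0.000355. Neither chr5:3878036-3884266 (log2 change 0.27, adjusted p = 0.0581) nor chr5:132614062-132624786 (-0.61, adjusted p = 0.169) passed edgeR's threshold.

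The share called was larger at higher depth, so the intervals were also compared with others of equal reads. Of the 151 isolated long intervals with 50 to 99 reads, 3.31% were higher and 2.65% lower in KO at P8. Of the 61 with 1000 reads or more, 49.2% were higher and 29.5% lower. When each other kind of interval was weighted to the same 5 read classes, 21.7% of isolated long intervals were higher in KO, against 16.0% of isolated intervals over 1 kb and up to 5 kb, 24.5% of isolated intervals up to 1 kb, and 14.5% of overlapping long intervals. The shares lower in KO were 10.6%, 13.0%, 15.0% and 14.0% in the same order. The order did not hold in every class: at 1000 reads or more 29.5% of isolated long intervals were lower, against 26.4% of isolated intervals up to 1 kb. These differences in share were not tested.

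**Figure D4:**
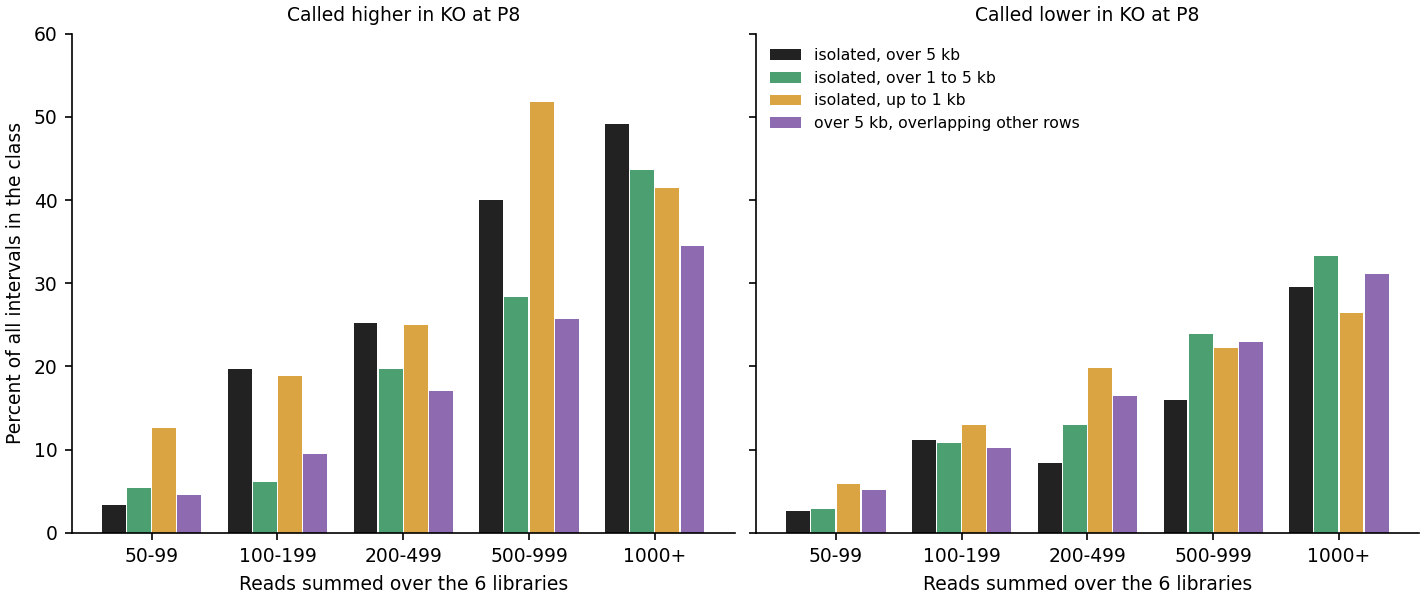
Percent of all intervals in each class of total reads that were called higher (first panel) or lower (second panel) in KO at P8, for 4 kinds of autosomal interval. Among isolated long intervals the share higher in KO goes from 3.31% in the lowest class to 49.2% in the highest, and the share lower from 2.65% to 29.5%, with a dip to 8.40% between 11.1% and 16.0%.

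Neighbouring intervals were then read for the same contrast, since an isolated interval may have others close by. The nearest non-overlapping interval on each side was taken. For intervals higher in KO at P8, 45 such neighbours were tested, and 21 of them (46.7%) were higher and 4 (8.89%) lower. For intervals lower in KO, 42 neighbours were tested, of which 2 (4.76%) were higher and 12 (28.6%) lower. Beside the tested intervals called in neither direction, 19.7% of 127 tested neighbours were higher and 22.8% lower. Beside the 138 intervals not tested at P8, 33.3% of 54 tested neighbours were higher and 7.41% lower, shares that also lean to higher. Among all other intervals of at least 50 reads, 39.7% of neighbours of higher intervals were higher and 35.2% of neighbours of lower intervals were lower. No test was made of these shares.

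Beside some of the largest changes, a neighbouring interval changed in the same direction. Whether such neighbours share a source was not tested, and values are given for some of the named intervals only. On both sides of chr8:13763996-13770926, chr8:13745616-13759273 at 4722 bp and chr8:13790502-13799145 at 19575 bp were higher in KO, with log2 changes of 1.66 and 1.40. Beside chr5:12205541-12213229, chr5:12217965-12218191 at 4735 bp was higher by 4.56, and beside chr2:144951705-144960647, chr2:144963895-144965045 at 3247 bp was higher by 3.36. To the right of chr6:127799093-127809834, chr6:127816932-127831305 at 7097 bp was lower, with a log2 change of -3.66. Others stopped short. Only 883 bp from chr1:91328539-91338412, chr1:91339296-91351656 had a log2 change of 0.22 and passed in neither direction. The neighbours of chr14:52520684-52534136 went opposite ways, with -1.13 at 1569 bp and 1.06 at 13116 bp. Of the isolated long intervals themselves, 22 pairs lay within 100 kb of each other and in 0 pairs were both called. Many of these pairs held an interval not tested at P8, which could not be called. The same share over all intervals was not computed, so no conclusion is drawn from it.

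At P0 each genotype had 1 library, so the genotype comparison there has no replicate check and no p-value. Of the 330 isolated long intervals deep enough at P0 (50 reads over both libraries), 59 (17.9%) exceeded WT by 2-fold or more in KO with a 95% counting interval that excluded 1, and 21 (6.36%) were lower. Over all 20478 intervals with that depth, 9.63% were higher and 5.37% lower. Other isolated intervals had higher shares too: weighted to the same classes of total reads, 11.8% of all 498 were higher, against 12.7% of isolated intervals over 1 kb and up to 5 kb, 18.1% of those up to 1 kb and 4.94% of overlapping long intervals. The median log2 ratio was 0.13 over these isolated long intervals and -0.09 over all intervals. With total counts in place of TMM every such ratio moves by -0.11. Counting intervals are exact conditional binomial ones. They reflect counting error alone, because each genotype had 1 library at P0. Without molecular identifiers 2 reads may copy 1 molecule, so even the counting error may be understated.

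The highest ratios were at chr3:132339538-132347563, with 157 reads in WT and 916 in KO (8.85-fold, interval 7.46 to 10.5), and at chr2:144951705-144960647, with 35 and 197 reads (8.53-fold, 5.93 to 12.6). Both were also among the 8 largest increases at P8. Then came chr2:150929269-150944329 (6.86-fold, 4.14 to 11.9), chr13:114751414-114758788 (5.10-fold, 3.58 to 7.42) and chr14:117103639-117121870 (4.90-fold, 3.88 to 6.23). These 3 had at most 4 reads in either WT P8 library and were not tested at P8. In the other direction chr1:8538919-8547348 had 119 reads in WT and 13 in KO (6.04-fold higher in WT, 3.40 to 11.7), and chr8:55951765-55972470 had 275 and 33 (5.50-fold, 3.82 to 8.15). At chr7:28762508-28767791 WT was 5.09-fold higher (2.91 to 9.62).

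Of the 108 intervals higher in KO at P8, 26 (24.1%) were also at least 2-fold higher in KO at P0, which is 44.1% of the 59. Over all intervals 14.7% of those higher at P8 were higher at P0. Lower in KO at both ages were 2 intervals, 3.77% of the 53 and 9.52% of the 21, and over all intervals 2.88% of those lower at P8 were lower at P0. One was chr9:103225799-103231587, at 193 CPM in WT and 37.9 in KO at P0, and at 52.2 and 60.8 in WT and 25.6 and 24.0 in KO at P8. The other was chr5:32937942-32948271, at 18.8 and 5.29 CPM at P0, and 80.5 and 85.1 in WT and 31.2 and 30.7 in KO at P8. Their P8 log2 changes were -1.16 (SE 0.14, edgeR adjusted p = 2.84e-05) and -1.39 (SE 0.12, adjusted p = 1.65e-06). Opposite directions occurred at 2 intervals, named after their values were seen. Lower in KO at P0 and higher at P8 was chr13:103457623-103473014, 0.926% of the P8 list against 1.99% over all intervals. Higher at P0 and lower at P8 was chr1:37244326-37255329, 1.89% against 1.25%.

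The age comparison set P8 THY1+ cells against P0 germ cells within each genotype, in a fit where the single P0 library of a group is assumed to vary like the P8 pairs. In WT 148 of the 498 isolated long intervals were higher at P8 (29.7%, background 29.4% of 37619 intervals tested) and 208 lower (41.8%, background 38.5%). In KO 137 were higher (27.5%, background 26.4%) and 173 lower (34.7%, background 31.3%). These shares are near those of all intervals tested. Scaling set the balance: with total counts in place of TMM WT had 100 higher and 273 lower and KO had 82 and 224, as the median of all intervals moved from -0.47 to -1.22 in WT and from -0.27 to -0.95 in KO. Without either WT P8 replicate, which left 1 library in that group, fewer were called lower in WT, among isolated long intervals and all intervals alike.

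Read against the median of all intervals, several changes far exceeded that shift. The largest gain over age was at chr1:78364305-78370523, with 0 reads in both P0 libraries, 32 and 34 in WT at P8 and 14 and 18 in KO at P8. All its 98 reads were thus at P8, and it reached the limit of 50 only through that age. It was at least 19.4-fold higher at P8 in WT and at least 7.70-fold in KO. In WT chr6:127799093-127809834 was 234-fold higher at P8 (counting interval 118 to 542), from 8 reads at P0. Also in WT, chr13:31025456-31031471 was at least 10.9-fold and chr13:13782117-13795048 at least 7.66-fold higher, both from 0 reads in the WT P0 library. In KO chr6:111116410-111122772 was at least 6.50-fold higher. From 2 KO reads at P0, chr2:45597542-45606828 was 112-fold higher in KO (30.7 to 928), and 59.2-fold higher in WT. In KO chr5:12205541-12213229 was 52.5-fold higher (17.7 to 256) from 3 reads.

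Among the 4 largest decreases over age in KO, chr5:132614062-132624786 rested on the most reads. It had 3843 WT and 1073 KO reads at P0 and 14 to 35 in each P8 library, a level 72.5-fold lower in WT and 47.9-fold lower in KO (counting interval 33.6 to 70.9). For chr7:18113911-18121497 the log2 changes were -4.74 in WT and -4.78 in KO, and for chr8:107740337-107747259, which was higher at P8, they were 4.38 and 4.42. None of the 3 passed the test for a difference in this change between genotypes. All had edgeR adjusted p-values of 7.22e-07 or less in these contrasts. The largest fitted decreases otherwise came from intervals with 0 or 1 read at P8. In WT chr15:47204485-47209764 was at least 16.2-fold lower, chr13:113185533-113192460 at least 12.5-fold, chr1:75608397-75613424 at least 11.7-fold and chr12:94878961-94884146 at least 10.6-fold. The call at chr1:75608397-75613424 was lost with DESeq2 (adjusted p = 0.324) and, with edgeR, without WT P8 replicate 1 (0.0916) or replicate 2 (0.0844), and that at chr12:94878961-94884146 without WT P8 replicate 1 (0.0522). In KO chr13:73000431-73014106 was at least 6.00-fold lower, chr1:82673937-82679997 58.2-fold (9.88 to 2351) and chr1:118992023-118998964 52.6-fold (8.89 to 2133), the latter 2 from 1 KO read at P8. The call at chr13:73000431-73014106 was lost without WT P8 replicate 1 (edgeR adjusted p = 0.0750) or replicate 2 (0.0736). Without the KO P8 library that lacks the 1 read, the fitted log2 changes at the other 2 were -4.73 and -4.55 in place of -5.62 and -5.48, and without the library that holds it the KO P8 group had 0 reads.

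**Figure D5:**
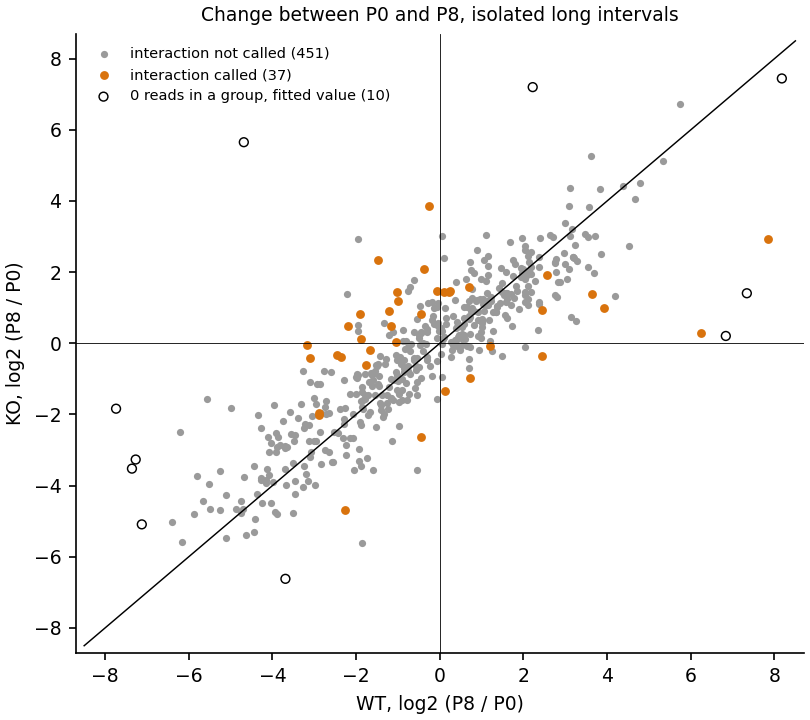
Log2 change from P0 to P8 in KO against WT for the 498 isolated long intervals, with the line of equal change. Intervals with 0 reads in a group, whose fitted change depends on the prior count, and intervals called for a genotype difference that itself differed between ages are marked. Most points lie near the line, and chr6:127799093-127809834 and chr4:57359346-57364439 fall far below it.

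WT and KO shared most of these age calls. Higher at P8 in both genotypes were 108 intervals, 73.0% of the WT list and 78.8% of the KO list, where the shares over all intervals were 72.6% and 81.1%. Lower in both were 161, 77.4% and 93.1% of the lists, against 67.9% and 83.6% over all intervals. Opposite calls were few. At 8 intervals the level fell with age in WT and rose in KO, 3.85% of the WT list and 5.84% of the KO list, against 2.30% and 3.36% over all intervals. With total counts 4 of the 8 did so as well. Of these 8, chr13:42133023-42142433, singled out after its values were seen, held the most reads. It was at 39.6 CPM in WT and 73.2 in KO at P0, at 20.4 and 19.4 in WT at P8 and at 178 and 153 in KO at P8. Its log2 changes with age were -0.99 in WT (edgeR adjusted p = 0.000799) and 1.18 in KO (adjusted p = 0.000333). With either WT P8 replicate left out, and with DESeq2, 1 of the 8 kept both calls. The reverse was seen at 1 interval (0.676% and 0.578% of the lists, against 0.740% and 0.697% over all intervals), chr8:88899450-88911094, at 13.1 and 31.1 CPM in WT and KO at P0, 20.8 and 22.1 in WT at P8 and 18.9 and 12.6 in KO at P8. No such pair of calls was made with no filter on low counts, with DESeq2, without either WT P8 replicate, or in a fit to isolated intervals alone.

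Whether the genotype difference itself changed between the ages was tested as an interaction in the same fit. It was more positive at P8 than at P0 for 26 intervals (5.22%, background 5.16%) and more negative for 13 (2.61%, background 2.55%), shares near those of all intervals tested. Leaving aside those with a WT group at 0 reads, the largest each way were chr8:13763996-13770926 (log2 difference 4.12, SE 0.33, edgeR adjusted p = 0.00066) and chr4:57359346-57364439 (-5.97, SE 0.59, adjusted p = 0.00146). In the first, KO gained with age and WT did not pass the test (log2 change 3.86, adjusted p = 8.97e-06, against -0.26, adjusted p = 0.366). In the second, WT gained and KO did not pass (6.25, adjusted p = 1.45e-06, against 0.28, adjusted p = 0.586). Next in size each way were chr6:127799093-127809834 (-4.90, SE 0.90, adjusted p = 0.0181) and chr15:35348896-35357928 (3.81, SE 0.66, adjusted p = 0.0144). Some smaller differences had lower adjusted p-values than these. The values at chr5:12205541-12213229 and chr13:13782117-13795048 rest on a WT group with 0 reads. Without WT P8 replicate 1, edgeR called 0 of all 36629 intervals tested in either direction, and without replicate 2 it called 0 of 36608. Both fits had 1 WT P8 library. The differences themselves were of like size in these fits, 4.52 and 3.82 at chr8:13763996-13770926 and -6.10 and -5.83 at chr4:57359346-57364439. DESeq2 on all 6 libraries tested 179 isolated long intervals and called 11 and 7, against 827 and 492 of all 12963 intervals it tested.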

How the data were processed

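Germ cell small RNA was analysed in 6 libraries. The table that the authors deposited gives raw read counts in 1272548 rows, 62 of them exact duplicates with the same counts, which were used once. A second deposited table gives log2 CPM at P8, which matches an edgeR calculation (TMM over the 4 P8 columns, prior count 2) to within 4.8e-14 and was not used further. Per the submitters' processing notes, cutadapt 1.13, FastQC 0.10.1, TopHat2 2.1.1, Bowtie 1.1.1, bedtools and the build GRCm39 were used. How reads with several matches were placed, and where the intervals come from, is not given in the sources used here, and either can set the level of an interval.

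Groups were taken from the labels. The counts were fitted on 88221 non-overlapping intervals, taken by mean CPM over the 6 libraries without regard to genotype. This set holds every isolated interval with a read. Tests used edgeR 4.0.16 in R 4.3.3 (filterByExpr, TMM, glmQLFit, glmQLFTest, two-sided), with Benjamini-Hochberg adjustment over all intervals tested and a threshold of 0.05. The P8 genotype contrast was fitted to the P8 libraries alone, the age contrasts and the interaction to all 6. The common biological coefficient of variation at P8 was 10.9%, with 2 residual degrees of freedom per interval. A further 9.99 prior degrees of freedom (median) came from the spread shared over all intervals tested. Folds are ratios of scaled reads summed per group. Where a group had 0 reads, a floor of 3 reads over the group gives a lower bound. The fits were tested on simulated data with 200 changed intervals. DESeq2 1.42.0 was an alternative. Within each P8 pair the counts varied beyond sampling noise (chi-square divided by its degrees of freedom 2.72 in WT and 3.12 in KO), so each library was kept.

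Intervals were named by rank: the 5 with most reads, the 5 densest and 2 thinnest, the 2 longest, the 8 largest P8 changes each way with at least 100 reads, the 5 largest P0 ratios each way, the 4 largest age changes each way per genotype, the 3 largest interactions each way, and those at the limits of the choice. The isolated long intervals and the rules were chosen with earlier results of these data known. Gene lists were not matched and no sequence was read, because the genome and gene tables at hand are of another build than the intervals.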

Additional observations from a re-analysis of the deposited data

Results flagged for a closer look

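At 15 of the isolated long intervals named above, the KO against WT difference differed between P0 and P8 by the interaction test (edgeR, adjusted p under 0.05). Many of them were named for their P8 change or for the interaction itself, from the same libraries, so their number gives no support. Over all 498 isolated long intervals 5.22% were more positive at P8 and 2.61% more negative, near the 5.16% and 2.55% of all intervals tested. The values that follow are log2 differences, P8 minus P0, of the KO to WT ratio. The difference was more negative at P8 for chr13:13782117-13795048 (-6.63), chr4:57359346-57364439 (-5.97), chr6:127799093-127809834 (-4.90), chr1:91328539-91338412 (-2.91), chr1:113435924-113441814 (-2.79), chr14:52520684-52534136 (-2.25), chr6:81876579-81893548 (-1.52) and chr11:40590190-40599563 (-0.63). It was more positive at P8 for chr9:103225799-103231587 (1.16), chr13:20847429-20861320 (2.01), chr12:119244519-119255622 (2.68), chr7:17529877-17544539 (2.72), chr15:35348896-35357928 (3.81), chr8:13763996-13770926 (4.12) and chr5:12205541-12213229 (10.34). The first and the last rest on a WT group with 0 reads, so their size depends on the prior count. Each P0 group is 1 library, and without either WT P8 replicate edgeR called 0 intervals in each direction, of 36629 tested without replicate 1 and 36608 without replicate 2. The values at chr8:13763996-13770926 were then 4.52 and 3.82, and those at chr4:57359346-57364439 -6.10 and -5.83. DESeq2 on all 6 libraries tested 179 isolated long intervals and called 11 more positive and 7 more negative, against 827 and 492 of all 12963 intervals it tested.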

How the results depend on the processing

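For the named intervals whose changes were recomputed, none changed sign under an alternative. The counts of intervals called moved by more than 1.5 times under several. Why they moved was not tested. DESeq2 gave 58 higher and 24 lower in KO of 415 tested at P8 (all intervals: 2750 and 2207 of 27780). Over age it gave 67 and 109 in WT and 65 and 91 in KO, of 498 tested. Over all intervals these were 5718 and 6157 of 38619 in WT and 4961 and 4878 of 35198 in KO. For the interaction DESeq2 gave 11 and 7 of 179 tested (all intervals: 827 and 492 of 12963). The number tested also differed between other settings, so the counts below are not directly comparable. With no filter on low counts 24 of 498 were lower at P8 (all intervals: 2351 of 73184). The interaction then gave 11 and 5 (all intervals: 1030 and 228 of 88221). Total counts gave 82 higher over age in KO (all intervals: 6465 of 37619). The fit to every deposited interval gave 21 negative interactions (all intervals: 13309 of 401718). The fit to isolated intervals alone, chosen after seeing the data, gave 7 and 3 (all intervals in that fit: 35 and 5 of 4077). Leaving out 1 P8 library at a time gave 33 to 54 lower in KO at P8, 124 to 220 lower over age in WT, and 0 to 47 and 0 to 24 for the interaction. Limiting the intervals to those over 10000 bp left 46 and 21 of 136 tested at P8. Of 181 tested with all 6 libraries, 56 and 69 were left over age in WT, 52 and 55 in KO, and 7 and 7 for the interaction. At P0 20 and 7 were left. The shares over all intervals here are those of the main fit. At least 1.5-fold at P0 gave 99 and 49, and the share over all intervals at that fold was not computed. The median density of 0.617 CPM per kb was 1.08 with at least 100 reads and 0.379 over 10000 bp. With the replicate number as a block at P8, 114 were higher and 61 lower. The deviations of same-numbered libraries correlated at 0.120 over all intervals tested, and the 2 numbers are not said to mark a pairing. For single named intervals 336 recomputed values kept their side of the threshold and 30 lost it. Depth limits the 138 intervals with too few P8 reads to be tested, for which a difference was not detectable.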
